A study of Penicillium oxalicum with 6 samples.

Results

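The 4 genes described here are POX00063, POX06783, POX08990 and POX08484 of the mould Penicillium oxalicum, which secretes enzymes that degrade plant cell walls. They were chosen by ID, as genes listed under the names Xyn10A, Xyn11A, Xyn11B and beta-xylosidase, out of 9834 genes in the deposited tables. The tables carry IDs and no gene names, and 0 of the 9834 IDs matched the 9964 RefSeq entries for this fungus, so the names were not checked against an annotation. All 4 genes were read in all 6 libraries, and all 4 passed the filter on low counts that left 8636 genes for testing. No coordinates or sequences are given for them, because the files pair none with these IDs.

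By their labels, the libraries were made from total RNA of mycelium of the strain MuKu70, written out in the sample titles as mutant Ku70. Loss of Ku70 is widely used in fungi to favour targeted gene replacement. The labelled material was not checked by marker genes, since no names are paired with the IDs. Of the 6 libraries, 3 carry the label of a medium with 1% Avicel, a microcrystalline cellulose, and 3 that of a medium with 1% wheat bran, all with a culture time of 4 hours. The replicate letters are F, S and T in both groups, and the labels do not state whether replicates are separate cultures. The p-values therefore reflect variation among these libraries only, some of which may be technical.

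The title of the series does not match these labels: it describes a mutant lacking POX07277, moved from glucose to Avicel for 24 hours. The deposited tables of both groups also bear the digits of this gene and 24 hours in their names, and neither a medium nor the labelled time. POX07277 had 427, 375 and 331 expected counts in Avicel-labelled replicates F, S and T, against 0 counts in each of the 3 wheat-bran-labelled libraries. CPM values are counts scaled to the TMM-normalised total of the tested genes. With a count of 0 read as at most 3 counts per library (0.222 to 0.225 CPM), the level of POX07277 in the Avicel-labelled libraries was at least 117-fold higher. Every direction below is therefore between Avicel-labelled libraries and wheat-bran-labelled libraries. Strain, medium and time behind these labels cannot be told apart here. The libraries held 13176152 to 14598919 expected counts. Avicel-labelled replicate F had the highest level of the 3 libraries of its group for 43.5% of tested genes, and for all 4 of the genes described here.

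Xylan is the main hemicellulose of many plant cell walls, a backbone of xylose units that often carries arabinose and other side groups. Endo-xylanases cut this backbone internally, and beta-xylosidases release xylose from the short fragments that result. Xylanases of the Xyn10 type tolerate side groups near the cleavage site better than those of the Xyn11 type, which act mainly on unsubstituted stretches. In filamentous fungi such as Aspergillus, genes for these enzymes are known to be activated by XlnR, a transcription factor that responds to xylose and xylan fragments, and repressed by CreA when glucose is present. Wheat bran is rich in arabinoxylan, while Avicel is mostly cellulose.

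All 4 genes were higher in the Avicel-labelled libraries than in the wheat-bran-labelled ones. POX00063, listed as Xyn10A, differed most, by 17.8-fold. POX06783 (Xyn11A) and POX08484 (beta-xylosidase) differed by 5.85-fold and 5.71-fold, and POX08990 (Xyn11B), the lowest of the 4 in FPKM, by 3.16-fold. All 4 passed the test (edgeR quasi-likelihood test, adjusted p under 0.05 over all tested genes), and for all 4 the lowest Avicel-labelled library lay above the highest wheat-bran-labelled one. These counts are read against the background of all tested genes. In that background 55% of genes passed in either direction and 27.5% passed as higher in the Avicel-labelled libraries, and 32% had groups that did not overlap with the Avicel-labelled one higher. A change of at least 2-fold upward was called for 7.03% of tested genes and for 4 of these 4, and one of at least 4-fold for 1.84% of tested genes and for 3 of these 4. The median log2 fold change of all tested genes was 0.0086. In RNA from whole mycelium, more cells with a transcript and more transcript per cell cannot be told apart.

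Levels are given in FPKM, the authors' values scaled to gene length and library total. Fold changes come from the edgeR fit of the counts, with the Avicel-labelled libraries over the wheat-bran-labelled ones.

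POX00063, listed as the endo-xylanase Xyn10A, stood at 2289.51, 1675.33 and 1404.39 FPKM in Avicel-labelled replicates F, S and T, against 116.82, 101.41 and 84.23 FPKM in wheat-bran-labelled replicates F, S and T. The groups were far apart and did not overlap. The means were 1790 ± 454 FPKM in Avicel-labelled and 101 ± 16.3 FPKM in wheat-bran-labelled libraries (SD, n = 3 each), a 17.8-fold difference with a 95% interval of 12.3 to 25.7 (log2 fold change 4.15 ± 0.23 SE, adjusted p by edgeR = 7.4e-06). Of the 8636 tested genes, 10 had a larger log2 fold change. By FPKM among all 9834 genes, POX00063 took ranks 53, 75 and 94 in Avicel-labelled replicates F, S and T, and ranks 1354, 1561 and 1809 in the wheat-bran-labelled ones. It was thus among the 100 most abundant genes in every Avicel-labelled library and in no wheat-bran-labelled one.

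POX06783, listed as the endo-xylanase Xyn11A, stood at 2165.97, 1411.76 and 1184.42 FPKM in Avicel-labelled replicates F, S and T, against 291.73, 288.49 and 236 FPKM in wheat-bran-labelled replicates F, S and T. The groups did not overlap, and Avicel-labelled replicate F stood well above the other libraries of its group. The means were 1587 ± 514 FPKM in Avicel-labelled and 272 ± 31.3 FPKM in wheat-bran-labelled libraries (SD, n = 3 each), a 5.85-fold difference with a 95% interval of 4.02 to 8.51 (log2 fold change 2.55 ± 0.23 SE, adjusted p by edgeR = 8.25e-05). A larger log2 fold change was found for 88 tested genes, or 1.02%. Its rank by FPKM was 58, 90 and 118 in Avicel-labelled replicates F, S and T, and 571, 579 and 701 in the wheat-bran-labelled ones.

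POX08990, listed as the endo-xylanase Xyn11B, was expressed far below the other 3 genes in both groups. It stood at 44.17, 41.26 and 31.66 FPKM in Avicel-labelled replicates F, S and T, against 11.66, 12.95 and 12.44 FPKM in wheat-bran-labelled replicates F, S and T. These values rest on 639, 591 and 449 expected counts in the Avicel-labelled libraries and 153, 173 and 169 in the wheat-bran-labelled ones. The difference was again larger than the spread: the means were 39.0 ± 6.55 FPKM in Avicel-labelled and 12.4 ± 0.650 FPKM in wheat-bran-labelled libraries (SD, n = 3 each), 3.16-fold apart with a 95% interval of 2.49 to 4.01 (log2 fold change 1.66 ± 0.15 SE, adjusted p by edgeR = 7.16e-05). Counting error alone is 7.60% to 8.09% of each wheat-bran-labelled value, while the libraries of that group varied by 5.26% (coefficient of variation). Their order within the group is therefore not resolved at this depth. POX08990 ranked between 3021 and 4019 by FPKM in the Avicel-labelled libraries and between 6368 and 6643 in the wheat-bran-labelled ones. A larger log2 fold change was found for 238 tested genes, or 2.76%.

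POX08484, listed as a beta-xylosidase, was the most abundant of the 4 in every library. It stood at 6223.42, 4516.59 and 3368.2 FPKM in Avicel-labelled replicates F, S and T, against 897.96, 864.31 and 717.01 FPKM in wheat-bran-labelled replicates F, S and T. The groups did not overlap, and replicate T was the lowest library in both, as it was for POX00063 and POX06783. The means were 4703 ± 1437 FPKM in Avicel-labelled and 826 ± 96.2 FPKM in wheat-bran-labelled libraries (SD, n = 3 each), a 5.71-fold difference with a 95% interval of 3.89 to 8.38 (log2 fold change 2.51 ± 0.24 SE, adjusted p by edgeR = 0.0001). It took ranks 11, 15 and 30 by FPKM in Avicel-labelled replicates F, S and T, and ranks 197, 198 and 265 in the wheat-bran-labelled ones. A larger log2 fold change was found for 90 tested genes, or 1.04%.

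For each gene, an exact permutation test on its 6 log2 FPKM values (two-sided) gave p = 0.1, the smallest p that 3 libraries against 3 allow.

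**Figure D1:**
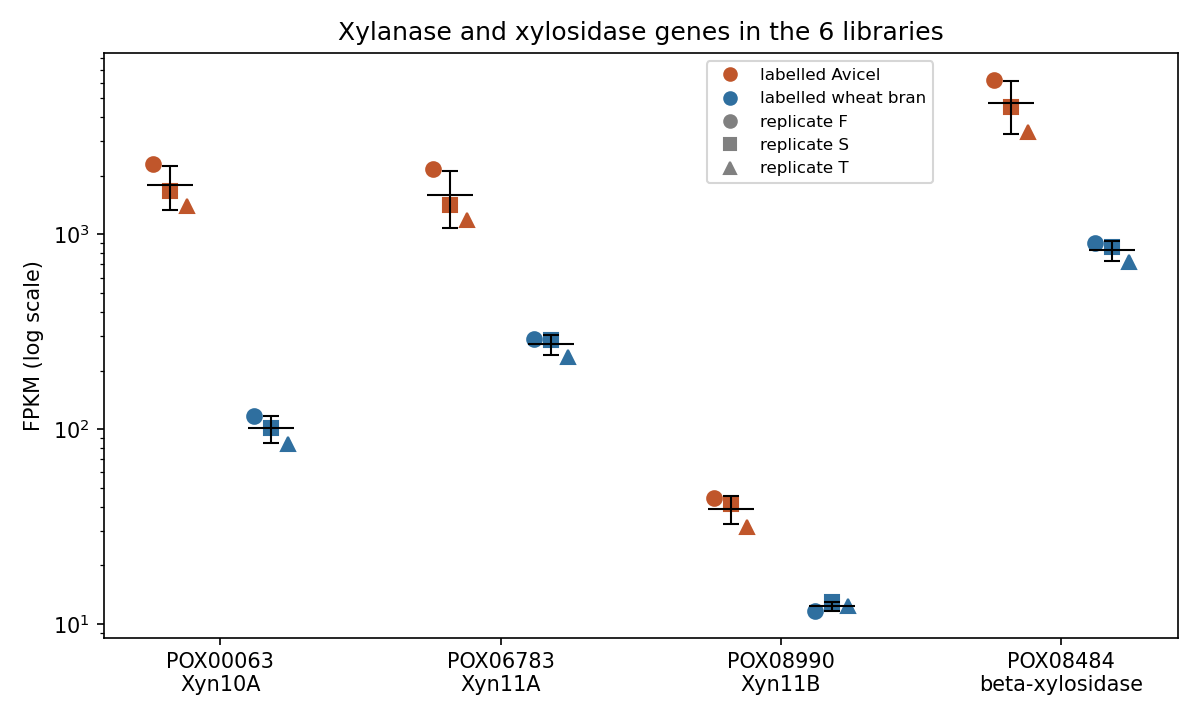
FPKM of the 4 genes on a log scale, with the 3 Avicel-labelled libraries left of the 3 wheat-bran-labelled ones for each gene; symbols mark replicates F, S and T, and black bars the mean ± SD. The Avicel-labelled libraries lie above the wheat-bran-labelled ones for every gene, with the widest gap for POX00063 and the lowest levels for POX08990.

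**Figure D2:**
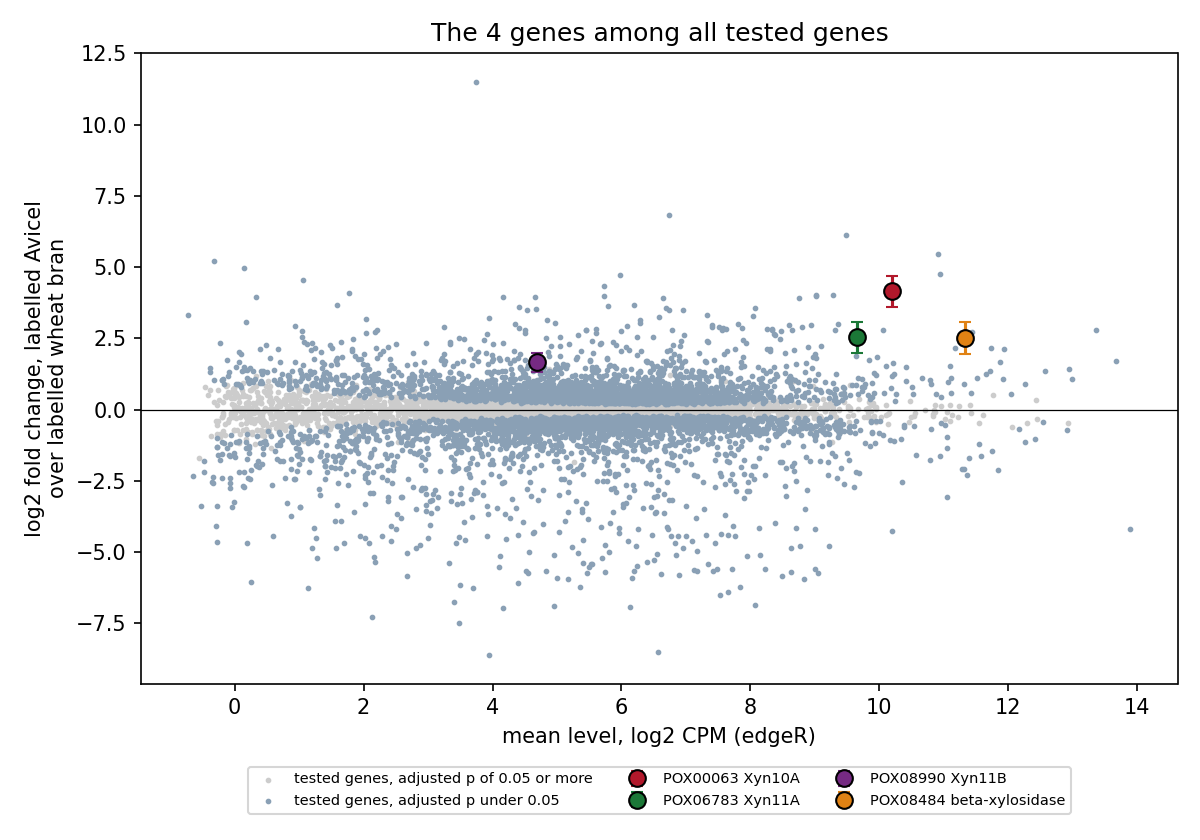
Log2 fold change (Avicel-labelled libraries over wheat-bran-labelled libraries) of 8636 tested genes against their mean level in log2 CPM, with the 4 genes in colour and their 95% intervals. POX00063, POX06783 and POX08484 lie at the abundant end, at 4.15, 2.55 and 2.51, and POX08990 lies in the middle of the range of levels at 1.66.

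Together the 4 genes made up 0.800% ± 0.234 of the counts of Avicel-labelled libraries and 0.115% ± 0.0136 of those of wheat-bran-labelled libraries (SD, n = 3 each). Their summed FPKM was 8119 ± 2403 in Avicel-labelled and 1212 ± 143 in wheat-bran-labelled libraries (SD, n = 3 each), a ratio of 6.70. It is given with no test, because the genes share libraries and are a chosen set. They were also chosen with earlier results known. Without Avicel-labelled replicate F the ratio was 5.63. The 3 genes listed as xylanases alone summed to 3416 ± 972 FPKM in the Avicel-labelled libraries and 385 ± 46.4 FPKM in the wheat-bran-labelled ones (SD, n = 3 each). Among the 100 genes with the highest mean FPKM in the Avicel-labelled libraries, 35 were called at least 2-fold higher there and 12 at least 4-fold higher, and 3 of the 100 were POX08484, POX00063 and POX06783. That ranking favours genes that are higher in these libraries, so these numbers only place the 3 genes among their peers.

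The make-up of the summed level differed between the groups. POX00063 gave 22.2% ± 1.09 of the summed FPKM in the Avicel-labelled libraries, against 8.30% ± 0.490 in the wheat-bran-labelled ones (SD, n = 3 each). POX08484 gave 57.8% ± 1.44 in the Avicel-labelled and 68.2% ± 0.0950 in the wheat-bran-labelled libraries, and POX06783 gave 19.5% ± 0.902 in the Avicel-labelled and 22.5% ± 0.321 in the wheat-bran-labelled libraries (SD, n = 3 each). POX08990 gave 0.493% ± 0.0708 in the Avicel-labelled and 1.03% ± 0.150 in the wheat-bran-labelled libraries (SD, n = 3 each). POX08484 was thus the largest part in both groups, and POX00063 was the one whose share was higher in the Avicel-labelled libraries.

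Ratios between the genes were taken within each library, where sequencing depth cancels. POX00063 and POX06783 changed places: their FPKM ratio was 1.06 to 1.19 in the 3 Avicel-labelled libraries and 0.352 to 0.4 in the 3 wheat-bran-labelled ones. POX00063, listed as Xyn10A, was thus the higher of the pair in every Avicel-labelled library and the lower in every wheat-bran-labelled library. In the Avicel-labelled libraries the levels of both genes lay within each other's spread across libraries, and only the ratio within each library separates them. The mean log2 ratio was 0.19 ± 0.10 in the Avicel-labelled and -1.44 ± 0.10 in the wheat-bran-labelled libraries (SD, n = 3 each), a difference of 1.63. The ratio of POX00063 to POX08484 differed by a similar amount, with mean log2 ratios of -1.38 ± 0.10 in the Avicel-labelled libraries and -3.04 ± 0.09 in the wheat-bran-labelled ones (SD, n = 3 each).

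The ratio of POX06783 to POX08484 was nearly the same in all libraries. It was 0.313 to 0.352 in the Avicel-labelled libraries and 0.325 to 0.334 in the wheat-bran-labelled ones, and the groups overlapped. The mean log2 ratios differed by 0.03, with SDs of 0.09 in the Avicel-labelled libraries and 0.02 in the wheat-bran-labelled ones (n = 3 each). The ratio between POX06783 and POX08484 thus differed between the groups by less than the SD of the Avicel-labelled libraries. The difference was more than the SD of the wheat-bran-labelled ones, while each gene differed more than 5-fold.

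For the pair listed as Xyn11A and Xyn11B the ratios of the groups did not overlap. POX06783 was 34.2 to 49.0 times POX08990 by FPKM in the Avicel-labelled libraries and 19.0 to 25.0 times in the wheat-bran-labelled ones, a difference of 0.86 in mean log2 ratio. The mean log2 ratio of POX00063 to POX08990 was 5.50 ± 0.18 in the Avicel-labelled libraries and 3.02 ± 0.29 in the wheat-bran-labelled ones (SD, n = 3 each), a difference of 2.49. That of POX08990 to POX08484 was -6.88 ± 0.22 in the Avicel-labelled libraries and -6.06 ± 0.21 in the wheat-bran-labelled ones (SD, n = 3 each), a difference of -0.82. All 6 pairs were tested with an exact two-sided permutation test over libraries. For 5 of them the groups did not overlap and p was 0.1 (0.12 adjusted over the 6 pairs), the smallest that this design allows, so none can pass 0.05. How often the ratios of other gene pairs fail to overlap was not determined. The 5 of 6 therefore have no background and are not read as particular to these genes. For POX06783 over POX08484 the same exact permutation test gave p = 0.5 (adjusted 0.5).

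**Figure D3:**
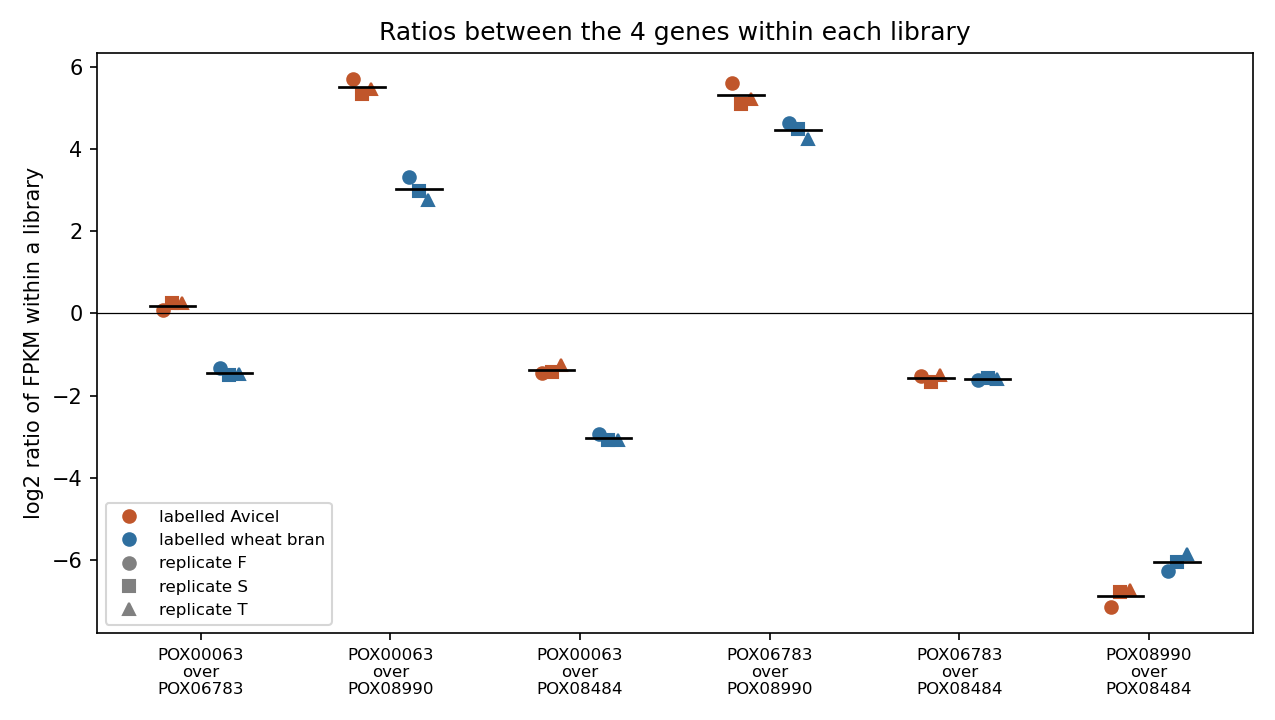
Log2 ratio of FPKM between each pair of the 4 genes within a library, with the Avicel-labelled libraries left of the wheat-bran-labelled ones; symbols mark replicates and black lines group means. The pair POX06783 over POX08484 sits at about the same ratio in all 6 libraries, while POX00063 over POX06783 lies above 0 in the Avicel-labelled libraries and below 0 in the wheat-bran-labelled ones.

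The Avicel-labelled libraries differed among themselves in these genes more than in most others. The coefficient of variation of normalised CPM in that group was 26.0% for POX00063, 33.0% for POX06783, 17.7% for POX08990 and 31.2% for POX08484, against a median of 9.80% over all tested genes. In the wheat-bran-labelled libraries it was 14.8%, 10.1%, 5.79% and 10.2% in the same order, against a median of 7.92%. Replicate F carried the highest and replicate T the lowest value of the Avicel-labelled group for all 4 genes. Over all tested genes, replicate F was the highest of this group for 43.5%. The share with F highest and T lowest was not determined, so this order is not read as particular to these genes. The level in replicate F was 1.66 times that in replicate T for POX00063, 1.86 times for POX06783, 1.42 times for POX08990 and 1.88 times for POX08484. A ratio of F over T at least as large was seen in 3.12%, 1.96%, 6.24% and 1.90% of tested genes, in the same order. The median of that ratio over all tested genes was 1.02. The highest over the lowest of the 3 libraries, whichever they were, reached these values in more genes. The shares were 12.9%, 8.81%, 22.5% and 8.58% of tested genes, and the median was 1.21. Without Avicel-labelled replicate F the log2 fold changes were 3.93 for POX00063, 2.25 for POX06783, 1.56 for POX08990 and 2.26 for POX08484, all past the threshold. The order of the 4 fold changes by size was the same but for POX06783 and POX08484, which stayed within each other's standard error.

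Reads shared between similar genes leave expected counts that are not whole. All 4 genes had whole counts in all 6 libraries, including the pair listed under the related names Xyn11A and Xyn11B. Over all genes, 109 had a fractional count in 1 library or more. Whole reads assigned to the wrong member of a similar pair would leave no such trace. The length implied by the ratio of counts to FPKM was 1242 bases for POX00063, 865 bases for POX06783, 993 bases for POX08990 and 931 bases for POX08484, and differed between libraries by at most 0.503% for each. It is an effective length and need not equal that of the transcript.

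Genes with similar profiles were ranked by the Pearson correlation of log2(FPKM + 1) over the 6 libraries, among the 6942 other genes with a mean FPKM of at least 10. These correlations are a description over 6 libraries that fall into a pair of groups, and they mostly reflect the difference between the groups. POX08484 and POX06783 had r = 0.9991, which made POX06783 the closest of all genes to POX08484, and POX08484 the gene at rank 4 for POX06783. POX00063 was less close to the others, with r = 0.9941 to both POX06783 and POX08484 (ranks 57 and 56), and 138 genes reached r of 0.99 with it. POX08990 had r of 0.9891 to 0.9919 with the other 3 genes.

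The gene closest to POX06783 was POX08485 (r = 0.9996), whose ID number follows that of POX08484, listed as a beta-xylosidase. POX08485 stood at 3641 ± 1081 FPKM in the Avicel-labelled libraries and 811 ± 69.1 FPKM in the wheat-bran-labelled ones (SD, n = 3 each; log2 fold change 2.17 ± 0.22 SE, adjusted p by edgeR = 0.00015). Next came POX03025 (r = 0.9994) and POX03505 (r = 0.9991). For POX08484, the genes after POX06783 were POX09137 (r = 0.9983) and again POX03505 (r = 0.9982). The genes closest to POX00063 were POX05611, POX09354 and POX04786, at r of 0.9984 to 0.9987. Of these, POX04786 was very abundant, at 13070 ± 3211 FPKM in the Avicel-labelled libraries and 1905 ± 299 FPKM in the wheat-bran-labelled ones (SD, n = 3 each; log2 fold change 2.78, adjusted p by edgeR = 5.78e-05). The genes closest to POX08990 were POX01117, POX00306 and POX08731, at r of 0.9967 to 0.9984. None of these IDs is named in the files.

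The genes with the nearest ID numbers were examined on both sides of each of the 4 genes. The order is that of the IDs, since no genome position is paired with them. Of the 40 IDs within 5 numbers, 34 were tested. In the Avicel-labelled libraries 14 of them were called higher, 6 of these by at least 2-fold, and 7 were called lower. Over all tested genes 27.5% were called higher, 7.03% at least 2-fold higher and 27.5% lower. The median log2 fold change of the 34 was 0.07. The 6 were unevenly spread: 5 lay beside POX08484, 1 beside POX08990, and none beside POX00063 or POX06783.

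Around POX08484, all 10 nearest IDs were tested, 7 were called higher and 1 lower, against 27.5% in each direction over all tested genes, and the median log2 fold change was 0.92, against 0.0086. Some of those called higher were weakly expressed, down to 2.64 FPKM in the Avicel-labelled libraries and 0.787 FPKM in the wheat-bran-labelled ones. Next to POX08484, POX08485 had the log2 fold change of 2.17 given above. On the other side POX08483 had one of 1.19 (± 0.10 SE, adjusted p by edgeR = 6.25e-05). Its mean was 39.6 FPKM in the Avicel-labelled libraries and 17.4 FPKM in the wheat-bran-labelled ones. The genes beside POX00063 differed little: POX00062 had a log2 fold change of 0.39 (± 0.08 SE, adjusted p by edgeR = 0.00398) and POX00064 one of 0.07 (± 0.09 SE, adjusted p by edgeR = 0.54). Over the 8 tested genes around POX00063 the log2 fold changes ran from -0.63 to 0.94. No neighbour of POX00063 by ID was thus called at 2-fold or more, against its own 17.8-fold difference.

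The genes beside POX06783 moved in opposite directions. POX06782 was lower in the Avicel-labelled libraries (log2 fold change -2.66 ± 0.44 SE, adjusted p by edgeR = 0.00155), at a low level of 0.393 FPKM there and 2.54 FPKM in the wheat-bran-labelled ones, and POX06784 was slightly higher (log2 fold change 0.48 ± 0.14 SE, adjusted p by edgeR = 0.0187). Beside POX08990, POX08991 was higher in the Avicel-labelled libraries (log2 fold change 1.15 ± 0.12 SE, adjusted p by edgeR = 0.000151), while POX08989 had a log2 fold change of -0.12 (± 0.08 SE, adjusted p by edgeR = 0.239). Whether the counting used strand is not given in the sources used here, so reads of overlapping or antisense neighbours may be mixed.

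**Figure D4:**
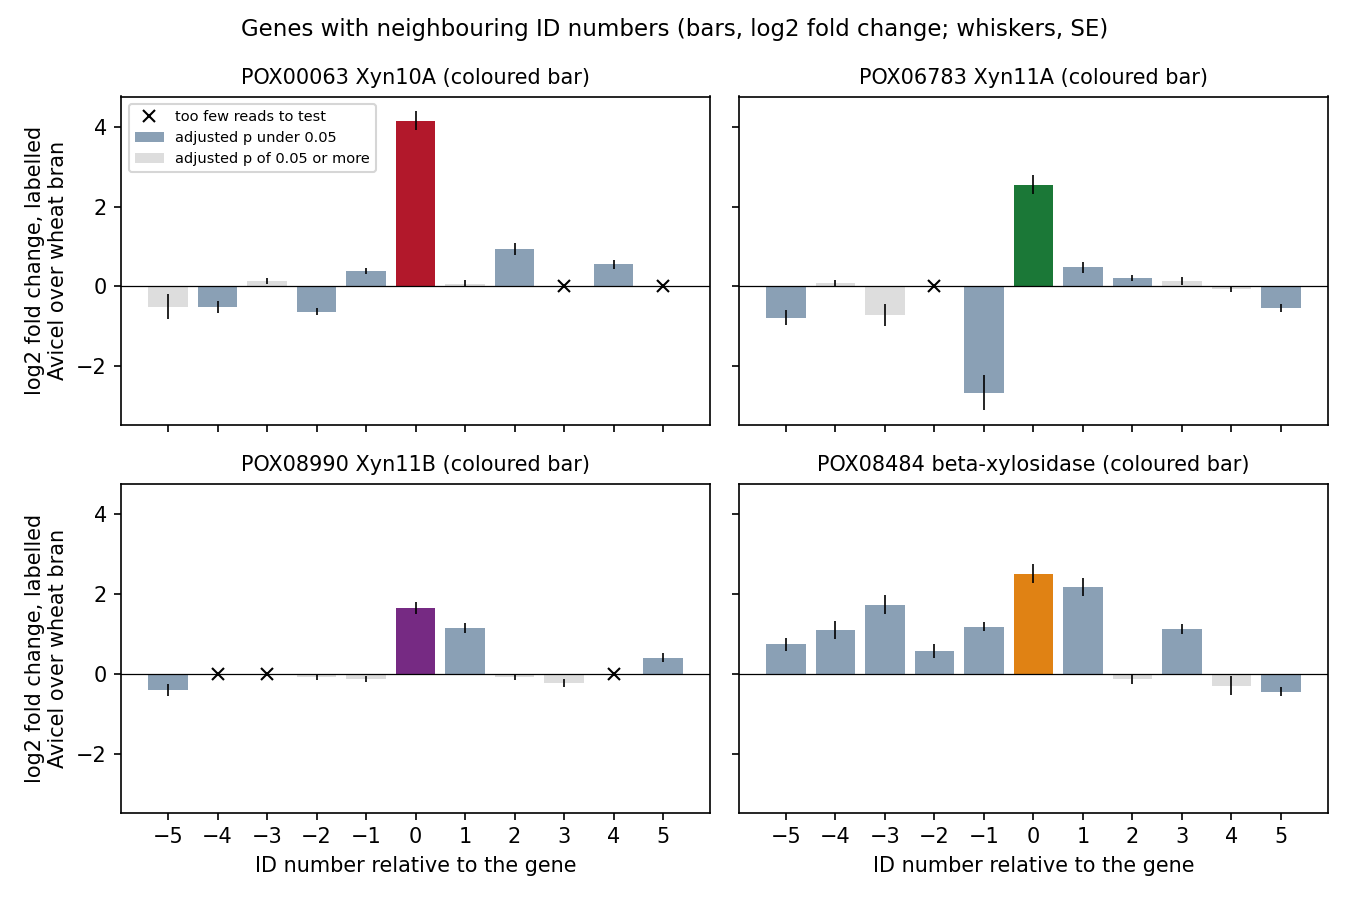
Log2 fold change (Avicel-labelled libraries over wheat-bran-labelled libraries) of the genes within 5 ID numbers of each of the 4 genes; bars give the value, whiskers the SE, and crosses mark genes with too few reads to test. Higher neighbours lie at every tested ID before POX08484 and at only some of those after it. POX00063 and POX06783 exceed neighbours that are lower or differ less than 2-fold.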

How the data were processed

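RNA of 6 mycelium libraries was sequenced by the authors. Each deposited table holds an expected count and an FPKM value per gene, per the file headers. The deposited expected counts are not normalized, were whole in 99.2% of values, and were rounded here. The authors' FPKM values are scaled to gene length and library total. 1 deposited table also holds TPM, used only to check that FPKM and TPM kept a constant ratio within 0.812% over 8282 genes. RSEM 1.2.12, Bowtie2 2.1.0, DESeq2 and BWA 0.7.10-r789 are named, without their roles, per the submitters' processing notes. Not given in the sources used here are genome build, annotation and strand setting.

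Counts were tested across all genes in R 4.3.3 by the two-sided quasi-likelihood F-test of edgeR 4.0.16, with TMM scaling and Benjamini-Hochberg adjustment over the 8636 genes kept by filterByExpr (1198 removed) and a threshold of 0.05. SEs were derived from the F statistic, and 95% intervals from these. The fit was tested on simulated counts. CPM values are TMM-normalised. Genes were named by rule: the 4 genes, POX07277, the 3 genes most correlated with each, and the 2 adjacent IDs. The genes and lists were chosen with earlier results of these data known. Alternatives used limma 3.58.1, DESeq2 1.42.0, other filters, scalings and pseudocounts, the gene length trend, a replicate block, and each library left out. Other genes of xylan breakdown were to be taken by product name, and no table used here pairs these IDs with products. Floors of 3 counts cover counting error only, since reads are not independent molecules.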

Additional observations from a re-analysis of the deposited data

How the results depend on the processing

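All 4 genes kept their direction and stayed past the threshold in all 18 alternatives each. The alternative with a stricter threshold uses the main fit, so it could not change the direction. The log2 fold change ranged from 3.93 to 4.32 for POX00063, 2.25 to 2.74 for POX06783, 1.33 to 1.81 for POX08990 and 2.26 to 2.72 for POX08484, with adjusted p of at most 0.000133, 0.00107, 0.000878 and 0.00123. The lowest value of POX08990 came from limma on log2(FPKM + 5), where the added constant shrinks the fold more at a lower FPKM. The number of genes past the threshold was 3251 to 4997, against 4746, within 1.5 times in all 18 alternatives. With the letters as a replicate block it was 4602, and the log2 fold changes were 4.13, 2.50, 1.65 and 2.47 in the same order of genes. The correlation of deviations from the group means between libraries sharing a letter was 0.194 for F, -0.0994 for S and 0.225 for T, and some libraries were closer to another letter, so the letters were not taken as pairs. The ratio of summed FPKM was 5.63 to 7.58 with each library left out, against 6.70. The differences in pairwise log2 ratios kept their sign in all 9 alternatives each, and for POX06783 over POX08484 ran from 0.0025 to 0.0875. The sign-flip alternative reuses the main difference, and counts in place of FPKM give nearly the same one because gene length cancels. Neither could change the sign. With 3 pairs of letters as a block, the sign-flip test cannot give a p below 0.25. Depth limits POX08990, with 153 to 173 counts in the wheat-bran-labelled libraries.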
